A study of Mus musculus with 9 samples.

Results

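The 9 genes described here encode the last kinase steps of the ERK cascade and a set of genes that this cascade switches on and that feed back on it. They are Map2k1, Map2k2, Mapk3, Braf, Dusp4, Dusp6, Spry2, Spry4 and Etv5. They were found by symbol in GENCODE M21 among the 44886 gene identifiers of the count files, and each of the 9 passed the filter on low counts. Map2k1 was selected on these libraries, chosen by its lower counts in both mutants, so its difference from the controls is given as a description and without a test. The other 8 were chosen for their place in the pathway, with earlier results of these data known.

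RNA was sequenced from mouse striatum at E17.5, with 1 embryo per library according to the labels. By their labels, 3 of the 9 embryos were Dlx5/6::Cre;Ebf1fl/-, another 3 were Islet1Cre;Ebf1fl/- and the last 3 were controls. Both mutants carry 1 null and 1 floxed allele of Ebf1, a transcription factor of striatal neurons. In Islet1Cre;Ebf1fl/- embryos, Cre is driven from the Islet1 locus, which acts in differentiated striatal neurons of the direct pathway and in cholinergic interneurons. Dlx5/6::Cre acts earlier, in projection neurons of both pathways and in interneurons. The study reports that striatal interneurons do not express Ebf1. The study used heterozygous embryos as controls, and the alleles of each control embryo were not given in the sources used here. Mutants came from 2 matings, of Ebf1fl/fl females with males that carried the Ebf1 null allele and 1 of the Cre alleles. The labels give C57BL/6 as the background, whereas the study's methods keep the Islet1Cre line on B6D2F1/J.

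In the cascade, growth factor receptors activate RAS proteins, RAS recruits RAF kinases such as BRAF, RAF phosphorylates the MEK kinases MEK1 (Map2k1) and MEK2 (Map2k2), and MEK phosphorylates ERK kinases such as ERK1 (Mapk3). Active ERK raises the transcription of its own inhibitors, among them the phosphatases DUSP4 and DUSP6 and the Sprouty proteins, and of the ETS factor gene Etv5, and the level of these transcripts is commonly read as a sign of ERK signalling. In the developing brain the cascade acts in progenitor division and in the growth and maturation of neurons. ERK activity itself is a matter of phosphorylation and was not measured here.

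The libraries held between 16548083 and 41507049 counts each. Ebf1, the targeted gene, was not lower in the mutants: its log2 fold change against the controls was 0.41 (SE 0.18, adjusted p = 0.599) in Islet1Cre;Ebf1fl/- and 0.33 (SE 0.18, adjusted p = 0.399) in Dlx5/6::Cre;Ebf1fl/- by the quasi-likelihood test of edgeR, so the counts do not check the genotype labels. The count of a gene sums its exons, deleted or not. By immunostaining at E17.5, the study found no Ebf1 protein in the striatum of either mutant. Of 48 marker genes of 8 cell types, 1 passed the test in any comparison with the controls, the striatal gene Foxp1 (log2 fold change -0.53, SE 0.11, adjusted p = 0.0305 in Dlx5/6::Cre;Ebf1fl/-). Dlx5/6::Cre;Ebf1fl/- replicate 1 stood apart, with a summed normalized count of 12533.0 for 6 dividing progenitor markers against 2349.1 to 3839.0 in the other 8 libraries. Transcripts of Xist and of 4 genes of the Y chromosome were both present in Control replicate 3 and Islet1Cre;Ebf1fl/- replicate 3. They were at 12074.5 and 295.3 normalized counts in the first and 7269.9 and 2450.1 in the second. Whether each of these libraries held RNA of 1 embryo was not tested. Control replicate 2 had 3.267 for Xist and 3799.8 for the Y-linked genes. The 3 Dlx5/6::Cre;Ebf1fl/- libraries had 10791.3 to 14766.3 for Xist and at most 0.8153 for the Y-linked genes. Sex was thus not matched between the genotypes, and its part in the values was not tested. The embryo codes in the labels begin with D or IE: all Dlx5/6::Cre;Ebf1fl/- embryos and Control replicate 3 have D, and the rest have IE.

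Map2k1 (ENSMUSG00000004936) lies on the minus strand of chromosome 9, from 64185770 to 64253631 in GRCm38. Its normalized count, the count divided by the library's size factor, was 2736.2, 2413.2 and 1920.1 in the controls. It was 1148.5, 1118.8 and 1349.5 in the Islet1Cre;Ebf1fl/- embryos. In the Dlx5/6::Cre;Ebf1fl/- embryos it was 1226.2, 1339.5 and 1178.2. Each of the 6 mutants lay below each of the 3 controls, by a gap larger than the SD of any genotype, and the 2 mutants overlapped. The means were 2356.5 ± 411.0 in the controls, 1205.6 ± 125.5 in Islet1Cre;Ebf1fl/- and 1247.9 ± 82.81 in Dlx5/6::Cre;Ebf1fl/- (SD, n = 3 each). Against the controls this gave 0.510 times (log2 fold change -0.97, SE 0.13) and 0.529 times (log2 fold change -0.92, SE 0.13) the level. Both values served to choose the gene, and both rest on the same 3 controls. In bulk tissue, fewer cells that contain a transcript and less of it per cell cannot be told apart.

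The controls were the more variable group for Map2k1, with a coefficient of variation of 17.4% against 10.4% and 6.64% in the mutants. Control replicate 3, the only control whose code begins with D, was the lowest of the 3. Among the embryos with a D code alone, the Dlx5/6::Cre;Ebf1fl/- difference was -0.62 on the log2 scale (SE 0.12, 3 embryos against 1). Among those with an IE code alone, the Islet1Cre;Ebf1fl/- difference was -1.10 (SE 0.11, 3 against 2). With the code as a term in the fit the differences were again -0.62 and -1.10. Each mutant has a single code, so this term rests on the controls alone. The fit thus makes the same comparisons as the embryos of 1 code and is no further check. The part of the code in these values was not tested.

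**Figure D1:**
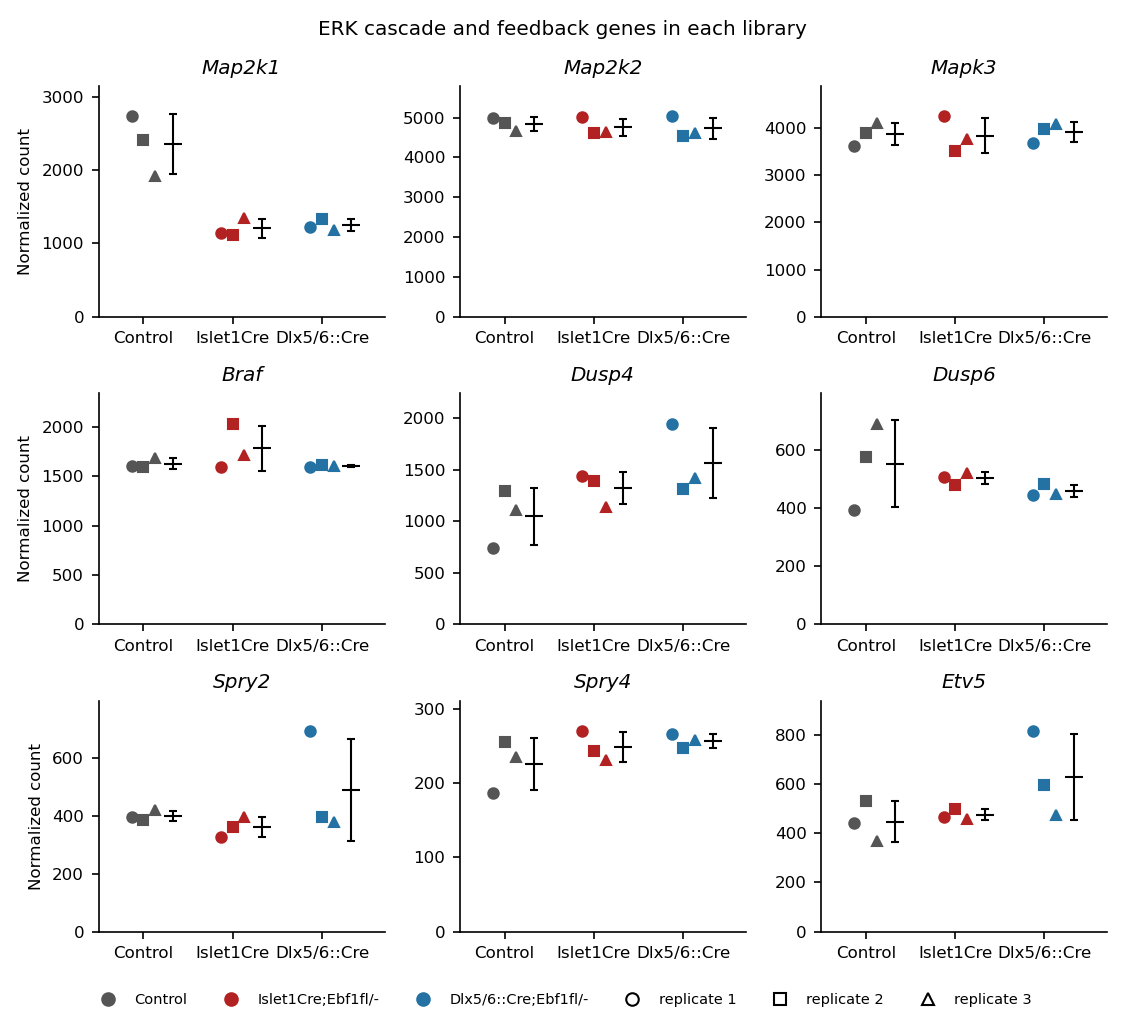
Normalized counts (vertical axes, from 0) of the 9 genes in each of the 9 libraries, by genotype (colour) and replicate number (shape), with the mean and SD at the right of each group (n = 3). The Map2k1 panel is the only one in which both mutants lie wholly below the controls, and Dlx5/6::Cre;Ebf1fl/- replicate 1 is the highest library for Dusp4, Spry2 and Etv5.

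The mutants were also compared directly with each other. The choice of Map2k1 did not use this contrast, but it used the same mutant libraries. For Map2k1 the comparison is therefore not independent of the choice. The log2 difference between Dlx5/6::Cre;Ebf1fl/- and Islet1Cre;Ebf1fl/- was 0.05 (SE 0.13, 95% interval -0.23 to 0.34, adjusted p = 0.966 by the quasi-likelihood test of edgeR with Benjamini-Hochberg adjustment). All Dlx5/6::Cre;Ebf1fl/- embryos have a D code and all Islet1Cre;Ebf1fl/- embryos an IE code, so genotype and code cannot be told apart in this comparison alone. With the code as a term, which then rests on the controls, the difference was 0.48 (SE 0.18, adjusted p = 1.00), outside the interval above. No difference in Map2k1 passed the test between the mutants. In this comparison 0% of the 16368 genes tested passed (844 had an unadjusted p under 0.05), and 0 of the 9 members passed. With DESeq2, which tested 26550 genes, 18 genes passed.

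Map2k2, which encodes the second MEK kinase, lies on the plus strand of chromosome 10 (81105915 to 81133975). The control embryos had normalized counts of 4995.7, 4859.9 and 4659.7. These were 5008.3, 4617.0 and 4647.9 in Islet1Cre;Ebf1fl/-. In Dlx5/6::Cre;Ebf1fl/- they were 5038.7, 4549.3 and 4623.0. The 3 genotypes overlapped, and the highest of the 9 libraries was 1.11 times the lowest, the narrowest range of the 9 genes, against 2.45 times for Map2k1. By the same test, Islet1Cre;Ebf1fl/- differed from the controls by -0.03 on the log2 scale (95% interval -0.19 to 0.13, adjusted p = 0.999) and Dlx5/6::Cre;Ebf1fl/- by -0.03 (-0.19 to 0.13, adjusted p = 0.877). A loss of the size described for Map2k1 lies outside both intervals.

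To set the MEK genes side by side, counts were divided by the length of the longest coding transcript, 2436 bases for Map2k1 and 2405 for Map2k2. On this scale Map2k1 made up 35.1%, 32.9% and 28.9% of the summed level of the pair in the controls. Its share was 18.5%, 19.3% and 22.3% in Islet1Cre;Ebf1fl/- and 19.4%, 22.5% and 20.1% in Dlx5/6::Cre;Ebf1fl/-. The summed level of the pair was 2725.7 to 3200.4 normalized counts per kb in the controls and 2379.0 to 2598.4 in the mutants, so that no mutant reached a control here either. With the length of all annotated exons merged, which adds more to Map2k2 than to Map2k1, the mean share was 44.6% ± 3.56 in the controls, 29.7% ± 2.60 in Islet1Cre;Ebf1fl/- and 30.6% ± 2.13 in Dlx5/6::Cre;Ebf1fl/- (SD, n = 3). Map2k2 was the more abundant transcript in every library with both lengths. These shares contain the difference on which Map2k1 was chosen and were not tested.

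**Figure D2:**
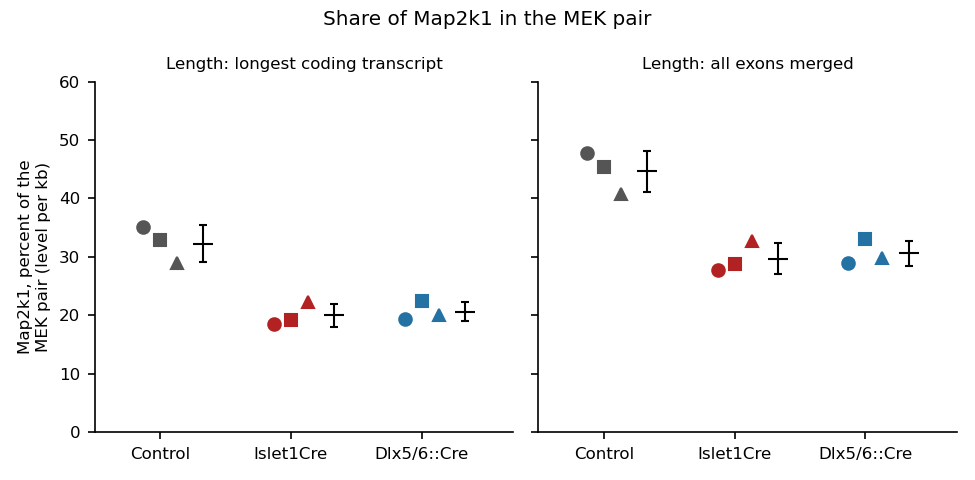
Map2k1 as a percentage of the summed level per kb of Map2k1 and Map2k2 (vertical axis, from 0) in each library, by genotype, with the mean and SD (n = 3); the left panel uses the longest coding transcript and the right panel all exons merged. The control libraries lie above all mutant libraries in both panels, at 28.9% to 35.1% on the left and 40.8% to 47.8% on the right.

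The sequence just before the annotated gene is shown for both MEK genes because Ebf1, the targeted gene, encodes a factor that binds DNA. The windows are from RefSeq for GRCm38.p6, printed 5′ to 3′ on the strand of the gene, at chr9:64253632-64253855 (minus strand) and chr10:81105665-81105914 (plus strand), and capitals mark the EBF core CCCNNGGG.
Map2k1: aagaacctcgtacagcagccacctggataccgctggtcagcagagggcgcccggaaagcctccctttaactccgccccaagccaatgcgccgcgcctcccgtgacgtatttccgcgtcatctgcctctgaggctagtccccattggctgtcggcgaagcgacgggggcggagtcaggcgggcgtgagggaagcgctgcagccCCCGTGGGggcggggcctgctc
Map2k2: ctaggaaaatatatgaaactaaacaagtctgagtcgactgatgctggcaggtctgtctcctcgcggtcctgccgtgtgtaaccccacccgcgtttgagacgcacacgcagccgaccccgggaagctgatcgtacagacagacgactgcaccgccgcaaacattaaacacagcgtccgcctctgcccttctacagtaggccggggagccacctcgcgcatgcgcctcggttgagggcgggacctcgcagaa
The core, which reads CCCGTGGG here, began 48 bases before the RefSeq start of Map2k1, which lies 26 bases past the end of the printed run because bases in the first exon of GENCODE were left out, and was not in the window of Map2k2. Among the 7 windows found for 6 of the members it occurred in 1 other, 168 bases before the start of Spry2. It was present in 13.7% of the 32851 windows of all genes, on either strand, so these letters alone are common. The windows searched hold the 250 bases before the start and also some bases after it. The binding of EBF1 was not measured in these files. Of 5 other motifs searched in the same windows, TGACGTCA (CRE) occurred 2 times before the start of Braf, at 99 and 81 bases, and in 1.79% of all windows, whereas TGAATGAA and TGAATGGA (Capicua), CCGGAAGT (ETS) and TGANTCA (AP-1) occurred in 0 of the 7 and in 1.3%, 1.21%, 3.89% and 7.81% of all windows. The motifs were chosen after the counts had been seen.

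Upstream of MEK, Braf (chromosome 6, 39603237 to 39725463, minus strand) had a normalized count of 1599.2, 1588.4 and 1688.2 in the controls. It was 1594.2, 2033.3 and 1714.6 in Islet1Cre;Ebf1fl/- and 1588.9, 1608.1 and 1603.8 in Dlx5/6::Cre;Ebf1fl/-. Islet1Cre;Ebf1fl/- replicate 2 was the highest library, and the groups overlapped. The log2 fold changes were 0.13 (95% interval -0.07 to 0.33, adjusted p = 0.905) and -0.02 (-0.22 to 0.18, adjusted p = 0.932) by the same test. Araf, another RAF gene, had log2 fold changes of 0.09 in Islet1Cre;Ebf1fl/- and -0.03 in Dlx5/6::Cre;Ebf1fl/- and did not pass.

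Downstream of MEK, Mapk3 (chromosome 7, 126759601 to 126765819, plus strand) had a normalized count of 3619.9, 3884.0 and 4092.2 in the controls. It was 4248.6, 3504.6 and 3756.7 in Islet1Cre;Ebf1fl/- and 3671.1, 3971.1 and 4078.4 in Dlx5/6::Cre;Ebf1fl/-. The groups overlapped, with log2 fold changes of -0.01 (95% interval -0.20 to 0.18, adjusted p = 0.999) and 0.01 (-0.17 to 0.20, adjusted p = 0.955). Transcripts of Braf and Mapk3 thus did not differ detectably from the controls, and the intervals of Map2k2, Mapk3 and Braf leave room for at most about 0.33 on the log2 scale in either direction.

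In the controls, the order of the 9 genes by level per kb of the longest coding transcript ran from Mapk3 (2147.4 ± 131) and Map2k2 (2011.8 ± 70.3), whose ranges overlapped, to Map2k1 (967 ± 169) and Dusp4 (383 ± 102). Dusp6 (198 ± 53.6) and Spry2 (192 ± 8.19) overlapped as well, and the range of Dusp6 also held that of Braf (167 ± 5.63), followed by Etv5 (112 ± 20.7) and Spry4 (47.5 ± 7.37), all SD with n = 3. With all exons merged, Mapk3 no longer overlapped Map2k2, Spry2 stood before Dusp6, again with overlapping ranges, and Braf overlapped Etv5.

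Among the feedback genes, Dusp4, which encodes a nuclear phosphatase of ERK, lies on chromosome 8 (34807297 to 34819894, plus strand). The control embryos had normalized counts of 744.4, 1290.3 and 1110.1. They were 1440.7, 1389.1 and 1141.9 in Islet1Cre;Ebf1fl/-. In Dlx5/6::Cre;Ebf1fl/- they were 1950.5, 1315.8 and 1422.0, so that each embryo of this genotype was above each control, the lowest by a margin smaller than the spread within either group. Its log2 fold change by the quasi-likelihood test was 0.57 in Dlx5/6::Cre;Ebf1fl/- (SE 0.20, 95% interval 0.14 to 1.01, adjusted p = 0.193) and 0.34 (SE 0.20, adjusted p = 0.840) in Islet1Cre;Ebf1fl/-. Neither passed the threshold of 0.05. With no filter on low counts the Dlx5/6::Cre;Ebf1fl/- value did pass (0.57, adjusted p = 0.0480), and without replicate 1 of that genotype it was 0.38 (adjusted p = 0.307).

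Dusp6 encodes the cytoplasmic phosphatase of ERK and lies on chromosome 10 (99263231 to 99267489, plus strand). It had 395.3, 575.7 and 692.6 normalized counts in the controls, which spanned the 6 mutant values of 445.8 to 520.8. The log2 fold changes were -0.14 (95% interval -0.52 to 0.24, adjusted p = 0.999) in Islet1Cre;Ebf1fl/- and -0.27 (-0.65 to 0.11, adjusted p = 0.484) in Dlx5/6::Cre;Ebf1fl/-. The second was -0.46 without Control replicate 1, -0.08 without Control replicate 3 and -0.59 with the code as a term, and passed in none of these. Its spread was among the controls, with a coefficient of variation of 27.0% there against 3.97% and 4.76% in the mutants. The phosphatase genes Dusp4 and Dusp6 had values of opposite sign in both mutants, and neither passed.

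Spry2 and Spry4 encode Sprouty proteins, which inhibit receptor signalling to RAS and RAF. Spry2 (chromosome 14, 105891947 to 105896819, minus strand) had 397.1, 384.6 and 418.5 normalized counts in the controls and 327.5, 362.5 and 395.5 in Islet1Cre;Ebf1fl/-. In Dlx5/6::Cre;Ebf1fl/- it had 693.0, 395.2 and 379.1, of which the first alone was outside the range of the controls on the high side. The log2 fold changes were -0.15 (95% interval -0.62 to 0.32, adjusted p = 0.999) and 0.29 (-0.18 to 0.75, adjusted p = 0.540), and the second was -0.05 (SE 0.12) without replicate 1. Spry4 (chromosome 18, minus strand) had 187.2, 255.6 and 234.7 normalized counts in the controls. It had 270.5, 244.0 and 230.9 in Islet1Cre;Ebf1fl/- and 266.6, 247.7 and 257.6 in Dlx5/6::Cre;Ebf1fl/-, with overlap in each case. Its log2 fold changes were 0.14 (adjusted p = 0.999) and 0.19 (adjusted p = 0.591).

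Etv5 encodes an ETS transcription factor induced by growth factor signalling and lies on chromosome 16 (22381309 to 22439719, minus strand). It had 442.3, 531.6 and 367.5 normalized counts in the controls and 466.2, 500.2 and 458.2 in Islet1Cre;Ebf1fl/-. In Dlx5/6::Cre;Ebf1fl/- it had 816.0, 594.6 and 474.5, of which the lowest was within the range of the controls. The log2 fold changes were 0.08 (95% interval -0.35 to 0.51, adjusted p = 0.999) and 0.49 (0.06 to 0.91, adjusted p = 0.254), and the second was 0.25 (SE 0.15) without replicate 1. Of the 75-base windows of Etv5 transcripts, 18.7% also occur in transcripts of Gm4798, and reads with more than 1 position had been removed, so its level may be understated in all libraries. The related factor genes Etv1 and Etv4 had 0.43 (SE 0.22) and -0.09 (SE 0.15) in Dlx5/6::Cre;Ebf1fl/-, and neither passed.

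Dlx5/6::Cre;Ebf1fl/- replicate 1 was the highest of the 9 libraries for Dusp4, Spry2 and Etv5, but not for Dusp6 or Spry4. It was also the highest for the summed markers of 3 of the 7 other cell types that the dissection could hold, and not for those of the oligodendrocyte lineage, endothelial and mural cells, microglia or red blood cells. The 6 dividing progenitor markers summed to 2349.1 to 3082.8 in the controls, 3203.4 to 3839.0 in Islet1Cre;Ebf1fl/- and 2772.2 to 12533.0 in Dlx5/6::Cre;Ebf1fl/-. The 6 radial glia and astrocyte markers summed to 16962.5 to 19499.7, 14640.7 to 19316.6 and 17343.2 to 28678.7. Gfap, at 0 in Control replicate 2, was the only marker of either list at 0 in any library. Of the radial glia and astrocyte markers, only Aqp4 was not highest in Dlx5/6::Cre;Ebf1fl/- replicate 1, at 86.35 against 131.2 in Control replicate 1. The 7 cortical excitatory neuron markers, none at 0, summed to 1123.6 to 2542.6, 1042.9 to 1929.3 and 2666.2 to 5954.0, with all 3 Dlx5/6::Cre;Ebf1fl/- libraries above the controls. No gene of these lists passed the test, and the part of these cells in the values of the feedback genes was not tested. Map2k1 was at 1226.2 in this library, between the other 2 of its genotype, and its log2 fold change without the library was -0.91.

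**Figure D3:**
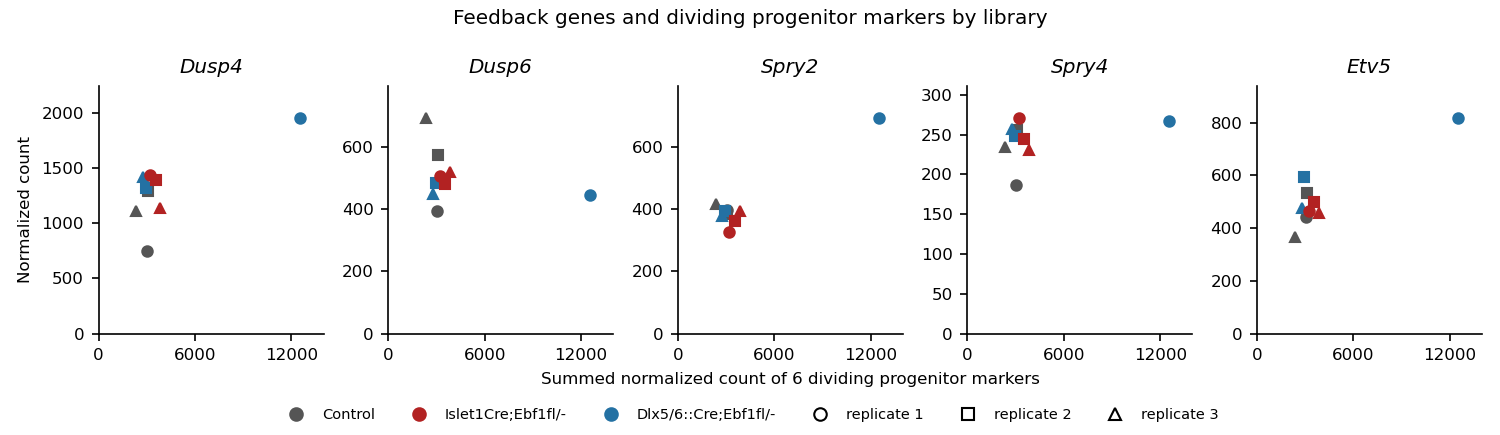
Normalized counts of the 5 feedback genes (vertical axes, from 0) against the summed normalized count of 6 dividing progenitor markers (horizontal axes), 1 point per library, by genotype (colour) and replicate number (shape). Dlx5/6::Cre;Ebf1fl/- replicate 1 lies alone at the right, at 12533.0, and is the highest library for Dusp4, Spry2 and Etv5; for Dusp6 it is within the range of the other libraries and for Spry4 just below the highest, at 266.6.

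Of the 8 members other than Map2k1, 0 passed the test in Islet1Cre;Ebf1fl/- and 0 in Dlx5/6::Cre;Ebf1fl/- with edgeR, against 0.971% and 2.39% of all 16368 genes tested. At an unadjusted p under 0.05 the counts were 0 and 2 (Dusp4 and Etv5), against 7.93% and 15.5% of all genes, and with DESeq2 they were 0 and 0 at the adjusted threshold. The genotypes did not overlap for 0 of 8 members in Islet1Cre;Ebf1fl/- and 1 of 8 (Dusp4) in Dlx5/6::Cre;Ebf1fl/-, against 15.1% and 20.9% of all genes. Between the mutants 0 of 9 did not overlap, against 10.4%. The median log2 fold change of the 8 was 0.04 and 0.10, and that of all genes was -0.0016 and 0.01. Their values ranged from -0.15 to 0.34 in Islet1Cre;Ebf1fl/- and from -0.27 to 0.57 in Dlx5/6::Cre;Ebf1fl/-. In counts simulated at the depth of these libraries, 94.0% of genes changed by 1 on the log2 scale were recovered. This was for the Islet1Cre;Ebf1fl/- comparison over 16368 genes, and smaller changes were not simulated. The simulation gave every gene the same spread, set beforehand and not estimated from these libraries. It therefore does not give the recovery for the members in these data.

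**Figure D4:**
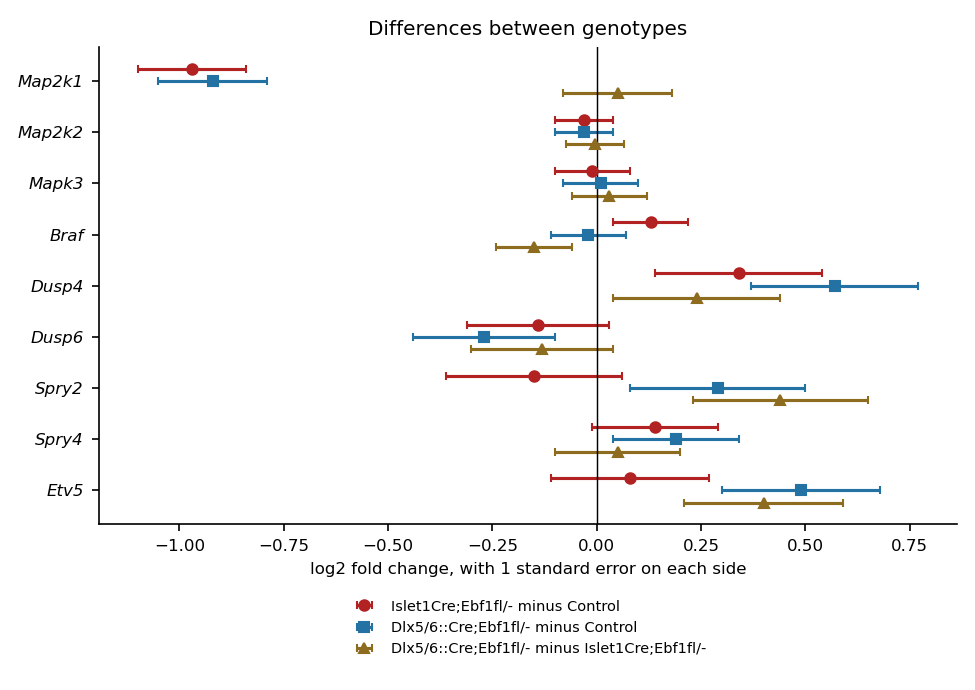
Log2 fold change (horizontal axis) of the 9 genes in the 3 comparisons, with 1 standard error on each side. Map2k1, chosen for it, lies at -0.97 and -0.92 against the controls and at 0.05 between the mutants, whereas the other 8 lie between -0.27 and 0.57 in all 3 comparisons.

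The wider pathway was followed in 76 other genes of ERK signalling, from receptors to early response genes, of which 74 were tested (Rasgrp2 and Dusp9 were too low). In Islet1Cre;Ebf1fl/-, 1 of the 74 fell and 0 rose, and the genotypes did not overlap for 16. In Dlx5/6::Cre;Ebf1fl/-, 4 fell and 0 rose, and the genotypes did not overlap for 19. Between the mutants 0 passed. Of all genes, 0.971% passed in Islet1Cre;Ebf1fl/- and 2.39% in Dlx5/6::Cre;Ebf1fl/-. The genotypes did not overlap for 15.1% and 20.9% of all genes. The median log2 fold changes of the 74 were -0.04 and -0.02.

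Of the pathway genes that passed, Ntrk2 and Ntrk3 encode receptors, Rasal1 acts on RAS and Rps6ka2 lies downstream of ERK. Ntrk2, which encodes the BDNF receptor TrkB, had 6734.2, 6863.1 and 8769.2 normalized counts in the controls. It had 4699.8, 4854.7 and 5603.7 in Islet1Cre;Ebf1fl/- and 5458.6, 5190.3 and 5083.7 in Dlx5/6::Cre;Ebf1fl/-, all below the controls (log2 fold changes -0.56, SE 0.11, adjusted p = 0.0427, and -0.51, SE 0.11, adjusted p = 0.0392). Ntrk3, which encodes the NT-3 receptor TrkC, had 2699.1, 2231.1 and 2412.6 in the controls and fell to 1646.1, 1470.6 and 1575.3 in Dlx5/6::Cre;Ebf1fl/- (-0.65, SE 0.13, adjusted p = 0.0268). In Islet1Cre;Ebf1fl/- it had 1554.8, 2219.1 and 2099.4 (-0.32, adjusted p = 0.491).

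Rasal1 encodes an activator of the RAS GTPase, which turns RAS off. It had 1379.4, 1048.6 and 1066.8 normalized counts in the controls and fell to 392.9, 634.7 and 571.6 in Dlx5/6::Cre;Ebf1fl/- (log2 fold change -1.13, SE 0.20, adjusted p = 0.0169). In Islet1Cre;Ebf1fl/- it had 593.9, 744.9 and 914.6 (-0.64, SE 0.20, adjusted p = 0.271), also all below the controls. Rps6ka2, which encodes an RSK kinase phosphorylated by ERK, had 1867.8, 2156.8 and 2321.2 in the controls and fell to 1443.2, 1405.9 and 1536.1 in Dlx5/6::Cre;Ebf1fl/- (-0.53, SE 0.11, adjusted p = 0.0272). In Islet1Cre;Ebf1fl/- it had 1404.0, 1757.3 and 1455.1 (-0.46, SE 0.11, adjusted p = 0.0911). A difference between the mutants was not detected for any of the 4 genes.

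With the embryo code as a term, 0 of 74 genes passed in either comparison. That term rests on the controls alone, so Dlx5/6::Cre;Ebf1fl/- is then compared with Control replicate 3 only. The values stayed negative, at -0.43 for Ntrk2 in Islet1Cre;Ebf1fl/- (SE 0.10). They were -0.74 for Ntrk2 (SE 0.12), -0.63 for Ntrk3 (SE 0.18) and -0.67 for Rps6ka2 (SE 0.14) in Dlx5/6::Cre;Ebf1fl/-. Rasal1 stayed between -1.27 and -0.95 there under all alternatives, the code included. Ntrk2 in Islet1Cre;Ebf1fl/- was past the threshold in all 9 libraries but lost it on leaving out any 1 library except Dlx5/6::Cre;Ebf1fl/- replicate 1, with values between -0.65 and -0.43, and the count of 4 in Dlx5/6::Cre;Ebf1fl/- fell to 1, 2 and 1 without Control replicates 1, 2 and 3 and to 1 and 0 without Dlx5/6::Cre;Ebf1fl/- replicates 2 and 3.

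**Figure D5:**
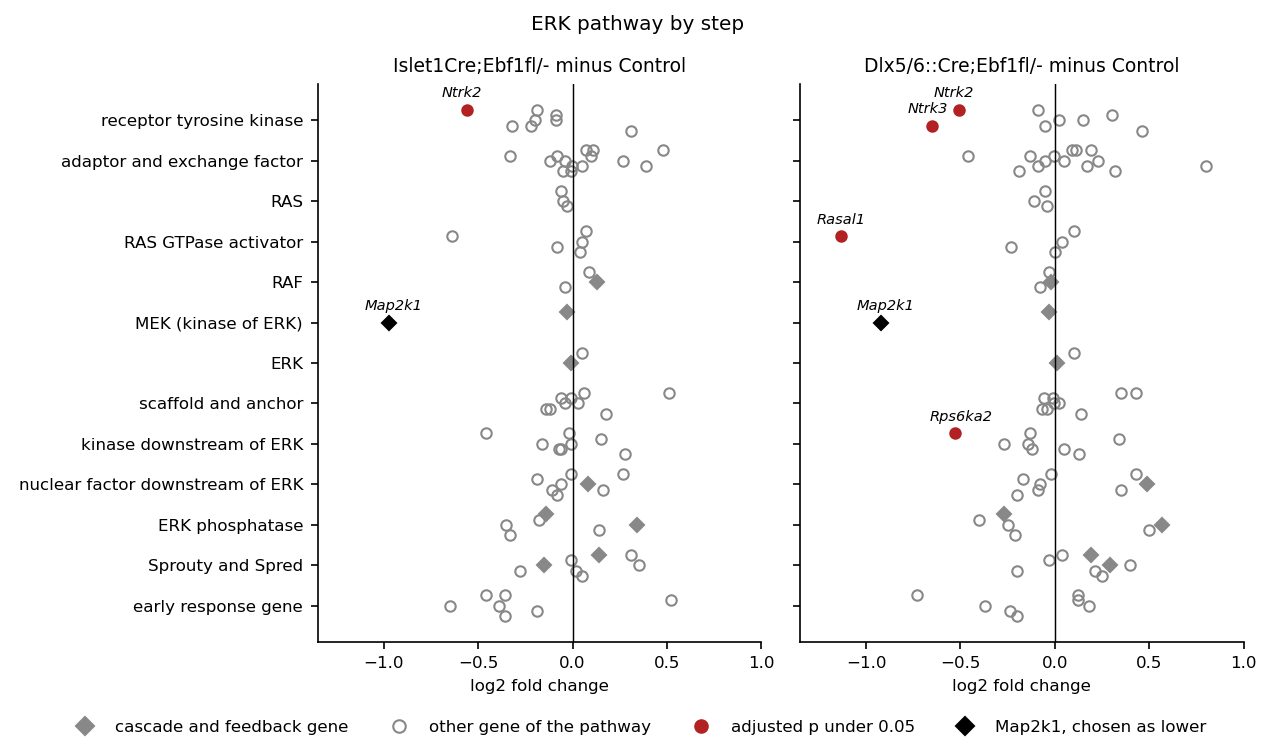
Log2 fold change against the controls (horizontal axes) of the 9 cascade and feedback genes (diamonds) and the 74 tested other genes of the pathway (circles), by step from receptors at the top to early response genes at the bottom; red marks an adjusted p under 0.05 and black marks Map2k1, which was chosen as lower. The red genes are Ntrk2 on the left and Ntrk2, Ntrk3, Rasal1 and Rps6ka2 on the right, all lower.

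At the other steps no gene passed in either mutant. The 3 RAS genes ranged from -0.11 to -0.03 in log2 fold change over both mutants. The 9 scaffold genes ranged from -0.14 to 0.51 in Islet1Cre;Ebf1fl/- and from -0.07 to 0.43 in Dlx5/6::Cre;Ebf1fl/-. The other negative regulators had values on both sides of 0: Dusp1 had 0.14 and 0.50, Dusp5 -0.33 and -0.21, Dusp7 -0.35 and -0.25, Spry1 -0.28 and -0.20, Spry3 -0.01 and -0.03 and Spred2 0.35 and 0.40 in Islet1Cre;Ebf1fl/- and Dlx5/6::Cre;Ebf1fl/-. The 7 early response genes are transcribed by neurons within minutes of stimulation. By the same test they ranged from -0.65 (Fos, adjusted p = 0.394) to 0.52 (Egr2, adjusted p = 0.911) in Islet1Cre;Ebf1fl/-. In Dlx5/6::Cre;Ebf1fl/- they ranged from -0.73 (Arc, adjusted p = 0.207) to 0.18 (Ier2, adjusted p = 0.818). Their medians were -0.36 and -0.20. Egr2 was low, with 14 to 50 reads per library.

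Genes were also ranked by how closely their log2 CPM followed that of Map2k1 over the 9 libraries, among 12100 genes with a mean count of at least 100. The 5 most alike were Calcrl (Pearson r 0.99), which encodes a receptor of calcitonin family peptides, Odc1 (0.97), the rate-limiting enzyme of polyamine synthesis, Tox2 (0.97), Map3k4 (0.97), which encodes a kinase of the stress-activated p38 and JNK cascades, and Kctd4 (0.97). Calcrl had 278.6, 283.4 and 192.4 normalized counts in the controls and 75.20 to 121.1 in the 6 mutants. Odc1 had 9838.5, 9861.8 and 8668.2 in the controls and 5513.4 to 6077.9 in the mutants. For Map3k4 the controls were at 1785.5, 1637.4 and 1437.2 and the mutants at 1138.2 to 1232.7. All 5 thus shared with Map2k1 the separation of the controls from both mutants, on which Map2k1 was chosen. By Spearman's rho 1 of the 5 (Calcrl) stayed among the top 5, and by r within genotypes 0 did. Among the members, r with Map2k1 over the 9 libraries ranged from -0.73 (Dusp4) to 0.31 (Map2k2). The 9 points share the same normalization, and the values are descriptions.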

How the data were processed

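Striatal RNA of E17.5 mouse embryos was sequenced, with 3 embryos for each of 3 genotypes and, per the labels, 1 library per embryo. Genotypes and replicate numbers came from the sample labels. Per the labels and the methods of the study, the authors prepared stranded poly(A) libraries, mapped reads of 75 bases with STAR 2.4.0k to mm10, discarded reads with several positions and counted the others with HTSeq 0.5.3 (Ensembl 81). The deposited values are whole-number counts per gene, not normalized. A gene with a near-identical copy is therefore counted too low.

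GENCODE M21 (GRCm38) named 44133 of the 44886 identifiers. The 9 members and all gene lists were chosen with earlier results of these data known. All 9 libraries were fitted together with edgeR 4.0.16 in R 4.3.3 on 16368 genes kept by filterByExpr (minimum count 10), with TMM scaling and the quasi-likelihood test for 3 comparisons. The threshold was a Benjamini-Hochberg adjusted p of 0.05 over all genes tested. Normalized counts use the size factors of DESeq2 1.42.0. Named were the members, the pathway genes that passed in any comparison, the genes of the same steps and the 5 genes most like Map2k1. Spred2 and the early response genes were named after their values were seen. Some genes of the same steps are not reported here. On data simulated for the Islet1Cre;Ebf1fl/- comparison, with the same preset spread for every gene, 2.02% of calls were false. Replicates of a genotype differed by more than sampling noise. Same-numbered embryos of different genotypes did not deviate together (mean correlation -0.02 over 9 pairs, against 0.01 over 18 other pairs). Members had between 129 (Spry4) and 6508 (Map2k2) reads per library. Other settings were DESeq2, its size factors in edgeR, other filters, the 6 libraries compared alone, a replicate block, the embryo code as a term or 1 code alone, leaving out each library, and another gene length (added after the data were seen). Promoter windows came from RefSeq.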

Additional observations from a re-analysis of the deposited data

How the results depend on the processing

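The log2 fold change of Map2k1 against the controls ranged from -1.10 to -0.85 in Islet1Cre;Ebf1fl/- under the 17 alternatives. In Dlx5/6::Cre;Ebf1fl/- it ranged from -1.05 to -0.62. Map2k1 was chosen as lower in these same libraries, so the negative sign throughout is a description and not a test. The count of other members that passed was 0 in all alternatives except with no filter on low counts in Dlx5/6::Cre;Ebf1fl/-, where it was 1 (Dusp4). Of the wider pathway, 1 gene passed in Islet1Cre;Ebf1fl/-, against 3 with DESeq2, 2 with no filter, 2 with the 6 libraries alone, 0 with the embryo code as a term or 1 code alone, and 0 to 4 with 1 library left out. In Dlx5/6::Cre;Ebf1fl/- 4 passed, against 0 with the code as a term, 0 to 5 with 1 library left out and 0 to 6 over all 17 alternatives. With the code as a term or 1 code alone, the Dlx5/6::Cre;Ebf1fl/- comparison rests on 1 control. With the replicate block the counts were 0 members in each mutant and 1 and 3 pathway genes. Ntrk3 in Dlx5/6::Cre;Ebf1fl/- was the gene lost, at -0.65 (adjusted p = 0.0501), and the block changed no other call among the genes named. Replicate numbers did not pair the embryos.

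The sign turned for genes that had not passed. With the code as a term, Mapk3 (0.03), Dusp6 (0.05) and Etv5 (-0.04) turned in Islet1Cre;Ebf1fl/-, and Map2k2 (0.02) and Mapk3 (-0.07) in Dlx5/6::Cre;Ebf1fl/-. With 1 code alone, which makes the same comparisons, the values were 0.03, 0.05 and -0.03, and 0.02 and -0.07. Between the mutants, the code as a term moved Map2k1 from 0.05 to 0.48 and turned Map2k2 (0.08), Mapk3 (-0.10), Spry4 (-0.03) and Ntrk2 (-0.31). With 1 library left out, values ranged for Mapk3 from -0.09 to 0.05, Dusp6 from -0.33 to 0.05 and Etv5 from -0.03 to 0.23 in Islet1Cre;Ebf1fl/-. They ranged for Mapk3 from -0.03 to 0.06, Braf from -0.04 to 0.0032 and Spry2 from -0.05 to 0.43 in Dlx5/6::Cre;Ebf1fl/-. Between the mutants they ranged for Map2k1 from -0.0001 to 0.14, Map2k2 from -0.05 to 0.03, Mapk3 from -0.03 to 0.11 and Rps6ka2 from -0.14 to 0.03. Over all alternatives in Dlx5/6::Cre;Ebf1fl/-, Dusp4 ranged from 0.38 to 0.75, Dusp6 from -0.59 to -0.08 and Etv5 from 0.25 to 0.77. The cause was not tested.

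Over all genes, 159 and 392 passed against the controls, 395 and 860 with DESeq2, 311 and 708 with no filter, 259 and 181 with the 6 libraries alone, 61 and 32 with the code as a term, and 169 and 2 with 1 code alone. DESeq2 tested 26550 genes and the fit with no filter 26563, against 16368 in the main fit. With 1 library of a genotype or 1 control left in a group, that embryo is assumed to vary like the others. Of the members, Spry4 had the fewest reads, 129 to 344 per library.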
